A study of Homo sapiens with 9 samples.

Results

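The genes described here are 10 transcription factors and regulators of the immediate early class: EGR1, EGR2, EGR3 and EGR4, the nuclear receptors NR4A1, NR4A2 and NR4A3, the zinc finger factors KLF4 and KLF6, and the nuclear protein IER2. They were taken by gene symbol from the 60664 genes that the count tables list, and each of the 10 symbols was found. The total RNA libraries came from HEK293Flip-In T-Rex, a human embryonic kidney line that carries a site for inserting a tetracycline-driven transgene. There were 9 libraries in 3 groups of 3: a TTC33 knock-down and a CCDC97 knock-down, each by a microRNA whose expression tetracycline switches on, and control cells without a microRNA. All groups, the control cells included, received tetracycline at 100 ng/ml for 3 days in medium with fetal bovine serum and were grown to confluency, and the labels name no acute stimulus. The study asked what depletion of TTC33, the name-giving protein of an assembly with WDR61 and PHF5A, or of CCDC97 does to gene expression. The labels do not say whether a microRNA line is a single clone or whether replicates are separate cultures, so each p-value is set by how far these libraries scatter, and that scatter may be technical only. In the comparisons with control, loss of the target and expression of a microRNA as such cannot be told apart, since the control cells express none.

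Immediate early genes are transcribed within minutes of a growth factor, serum, stress or depolarisation signal, without new protein synthesis, and their short-lived transcripts then fall again. The signal reaches EGR1 and its relatives mainly through ERK, which phosphorylates ternary complex factors (ELK1, ELK3, ELK4) bound beside serum response factor (SRF) at CArG boxes, and reaches the NR4A genes largely through CREB at cAMP response elements. EGR proteins bind GC-rich sites through zinc fingers and are restrained by the corepressors NAB1 and NAB2, while the NR4A proteins are orphan nuclear receptors that bind DNA alone or with RXR partners. KLF4 and KLF6 are zinc finger factors with a role in growth arrest and differentiation, and IER2 is a small nuclear protein.

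In the GENCODE annotation (build GRCh38), EGR1 lies on the plus strand at chr5:138465490-138469315, and EGR2 on the minus strand at chr10:62811996-62919900. EGR4 lies on the minus strand at chr2:73290929-73293705. NR4A1 is on the plus strand at chr12:52022832-52059507, NR4A2 on the minus strand at chr2:156324432-156342348 and NR4A3 on the plus strand at chr9:99821855-99866891. KLF4 is on the minus strand at chr9:107484852-107490482, KLF6 on the minus strand at chr10:3775996-3785281, and IER2, whose longest coding transcript has 1 exon, on the plus strand at chr19:13150415-13154908.

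The promoters of EGR1, EGR2, KLF4 and IER2 are shown because EGR1 and KLF4 rose in TTC33 knock-down cells, IER2 was higher there than in CCDC97 knock-down cells, and EGR2, which has the same 2 kinds of motif as EGR1, had a fold change near 0. RefSeq windows from 250 bases before to 50 bases after an annotated start (build GRCh38.p14) were matched by symbol for 8 of the 10 genes, all but EGR3 and NR4A2, 11 windows in all. Each was searched on both strands for the CArG box (CC, a run of A or T, GG) and for the cAMP response half-site TGACG. The search also took in CCGGAA, a form of the ETS core to which ternary complex factors bind, and the EGR sites GCGTGGGCG and GCGGGGGCG. Other forms of the ETS core were not searched for. No 2 of these motifs overlapped in the windows shown. The windows lie at chr5:138465229-138465528 on the plus strand (EGR1), chr10:62816317-62816616 on the minus strand (EGR2, 1 of its 3 windows), chr9:107489720-107490019 on the minus strand (KLF4) and chr19:13150161-13150460 on the plus strand (IER2). They are printed 5′ to 3′ in the direction of transcription, with the bases of CArG boxes and of the half-site, which reads CGTCA on the other strand, in capitals.
EGR1: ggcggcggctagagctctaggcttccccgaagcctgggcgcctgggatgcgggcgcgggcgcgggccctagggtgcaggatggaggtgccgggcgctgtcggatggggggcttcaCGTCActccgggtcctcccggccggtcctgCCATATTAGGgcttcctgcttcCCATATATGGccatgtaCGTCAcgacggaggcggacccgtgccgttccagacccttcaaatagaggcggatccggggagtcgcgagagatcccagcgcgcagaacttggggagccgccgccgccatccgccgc
EGR2: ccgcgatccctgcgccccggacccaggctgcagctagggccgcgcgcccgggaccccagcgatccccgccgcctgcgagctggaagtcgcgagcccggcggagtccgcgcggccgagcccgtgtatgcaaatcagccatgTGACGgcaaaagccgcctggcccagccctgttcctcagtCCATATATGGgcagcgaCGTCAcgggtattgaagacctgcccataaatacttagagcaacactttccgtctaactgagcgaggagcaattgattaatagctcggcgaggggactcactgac
KLF4: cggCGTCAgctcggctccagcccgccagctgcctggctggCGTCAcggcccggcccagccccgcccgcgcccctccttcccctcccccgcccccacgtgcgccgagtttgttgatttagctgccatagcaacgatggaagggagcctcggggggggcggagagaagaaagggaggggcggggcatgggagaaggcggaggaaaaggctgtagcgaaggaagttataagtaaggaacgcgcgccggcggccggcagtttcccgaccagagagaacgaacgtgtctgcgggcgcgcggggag
IER2: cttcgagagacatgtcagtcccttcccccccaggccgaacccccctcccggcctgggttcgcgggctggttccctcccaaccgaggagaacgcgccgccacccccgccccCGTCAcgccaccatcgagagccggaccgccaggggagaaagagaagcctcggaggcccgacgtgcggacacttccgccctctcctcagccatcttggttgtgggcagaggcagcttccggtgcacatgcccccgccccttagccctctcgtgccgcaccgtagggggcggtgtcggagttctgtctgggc

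The EGR1 window held 2 CArG boxes, at -105 to -96 and at -83 to -74 from the start, between 2 cAMP response half-sites. The EGR2 window held 1 CArG box at -71 to -62, also between 2 half-sites. CArG boxes were in these 2 genes alone among the 8, and in 1.6% of the 27305 genes with RefSeq windows of this length (1.29% of their 35116 windows). The half-site was in 6 of the 8 genes: EGR1, EGR2, EGR4, KLF4 and IER2 held 2, 2, 2, 2 and 1, and NR4A3 held 4, against 28.4% of all genes with at least 1 (24.6% of windows). CCGGAA was in 1 NR4A1 window and in the IER2 window (20.1% of all genes), and the EGR site GCGGGGGCG was in the KLF6 window (6.14%). A window without CCGGAA may still hold another form of the ETS core. GCGTGGGCG was in none of the 8 genes (0.96%). A match describes letters in the window and is not evidence of binding.

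**Figure D1:**
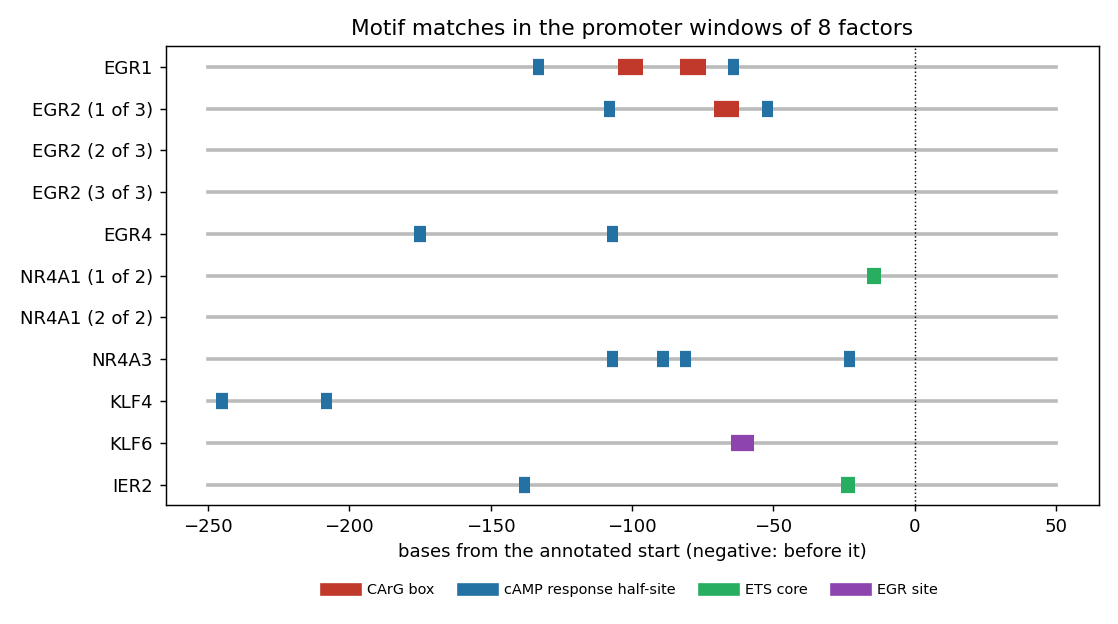
Motif matches in the 11 promoter windows of 8 factors. The horizontal axis gives bases from the annotated start, each grey line is a window and each coloured block a match. ETS core stands for CCGGAA only. The CArG boxes are in EGR1 and in 1 EGR2 window, and NR4A3 has the most half-sites, 4.

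Each library had 21764203 to 36110891 counts in genes, and 18299 genes were tested. The targeted genes checked the labels: TTC33 had 9.67, 6.41 and 6.16 CPM (counts per 1e+06 library counts, scaled by TMM factors) in TTC33 knock-down cells and 37.7, 37.1 and 38.6 in control cells (log2 fold change -2.34 ± 0.21 (SE), adjusted p = 0.000106, edgeR), and CCDC97 had 15.9, 15.3 and 15.7 CPM in CCDC97 knock-down cells and 60.6, 60.1 and 59.5 in control cells (-1.94 ± 0.12, adjusted p = 1.24e-05). In TTC33 knock-down cells CCDC97 itself was higher, by 0.43 ± 0.12 on the log2 scale (81.3 and 95.8 CPM in replicates 2 and 3 but 65.1 in replicate 1, adjusted p = 0.0371), a call that 7 of the 9 fits leaving out 1 library did not make (0.27 to 0.56), and it was 0.23 after a correction for GC content and length (adjusted p = 0.0245). CCDC97 knock-down replicate 3 had the fewest counts in genes of the 9 libraries. Of all its counts 37.55% were not uniquely aligned, against 8.43% in CCDC97 knock-down replicate 2. In how counts followed the GC content of genes, the first library of either knock-down was unlike the other 2. In the decile of highest GC content (median 63.9%), genes had median log2 differences from the control mean of -0.09, 0.37 and 0.40 in TTC33 knock-down replicates 1, 2 and 3 and 0.15, -0.28 and -0.28 in CCDC97 knock-down replicates 1, 2 and 3. Results of the factors are therefore also given without these first libraries and with GC content and length corrected by smooth trends per library. Both alternatives called more genes at an adjusted p under 0.05 (edgeR). Without the first libraries 48.7% of all genes were called in TTC33 and 35.6% in CCDC97 knock-down against control. With the correction 27.1% and 19.2% were, against 11.9% and 4.56% with all libraries and no correction. All 7 marker genes of HEK293 cells were detected at testable levels, with summed levels of 984 to 1137 CPM in TTC33 knock-down, 827 to 908 CPM in CCDC97 knock-down and 868 to 900 CPM in control libraries, and none of the 5 blood markers was. VIM made up most of the HEK293 sums, averaging 779.6 CPM in TTC33 knock-down, 602.4 CPM in CCDC97 knock-down and 615.5 CPM in control cells. VIM rose in TTC33 knock-down over control (log2 0.34, adjusted p = 0.014, edgeR). In CCDC97 knock-down the HEK293 markers ran from -0.55 (PAX2) to 0.43 (NEFM), none with an adjusted p under 0.05. Of the 4 fibroblast markers, LUM had 34, 13 and 11 counts in TTC33 knock-down libraries, 2, 2 and 4 in CCDC97 knock-down libraries and 3, 5 and 3 in control libraries, DCN had 6, 3 and 5 in TTC33 knock-down, 0, 1 and 0 in CCDC97 knock-down and 0, 0 and 0 in control libraries, and COL1A2 had no count in either knock-down. The summed level of the 4 was 7.90 to 10.4 CPM in TTC33 knock-down, 6.15 to 8.63 CPM in CCDC97 knock-down and 7.10 to 9.17 CPM in control libraries. COL1A1 made up most of this sum, averaging 8.52 CPM in TTC33 knock-down, 6.89 CPM in CCDC97 knock-down and 8.10 CPM in control cells. In TTC33 knock-down over control its log2 fold change was 0.07 (adjusted p = 0.823, edgeR), while that of LUM was 2.62 (adjusted p = 0.011). The 3 endothelial markers, of which 1 was tested, summed to 0.727 to 1.11 CPM in TTC33 knock-down, 0.198 to 0.424 CPM in CCDC97 knock-down and 0.299 to 0.698 CPM in control libraries. The part of these markers in the results was not tested.

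In control cells the factors differed widely in level. Per kilobase of annotated exon, IER2 was highest at 14.3 ± 0.42 CPM per kb (SD, n = 3 here and for all group values), followed by KLF6 at 7.60 ± 0.40 and EGR1 at 2.26 ± 0.11. NR4A2, KLF4 and NR4A1 came next at 1.78 ± 0.19, 1.76 ± 0.14 and 1.69 ± 0.13 CPM per kb, and these 3 levels lay within each other's spread. NR4A3 (0.57 ± 0.043), EGR3 (0.29 ± 0.044), EGR2 (0.11 ± 0.011) and EGR4 (0.0044 ± 0.0077) closed the order, each below the one before it by more than the spread. With the length of the longest transcript in place of all exons, NR4A1 (2.55) and KLF4 (2.29) stood above EGR1 (2.26) and NR4A2 (2.03). In TTC33 knock-down cells EGR1 reached 5.69 ± 0.86 CPM per kb, KLF4 2.87 ± 0.25 and IER2 17.7 ± 2.28, and KLF6 had 6.76 ± 0.14. IER2, KLF6 and EGR1 were the highest 3 in both knock-downs, as in the controls. In CCDC97 knock-down cells IER2 had 11.9 ± 1.80, KLF6 6.48 ± 0.088 and EGR1 2.80 ± 0.51 CPM per kb.

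**Figure D2:**
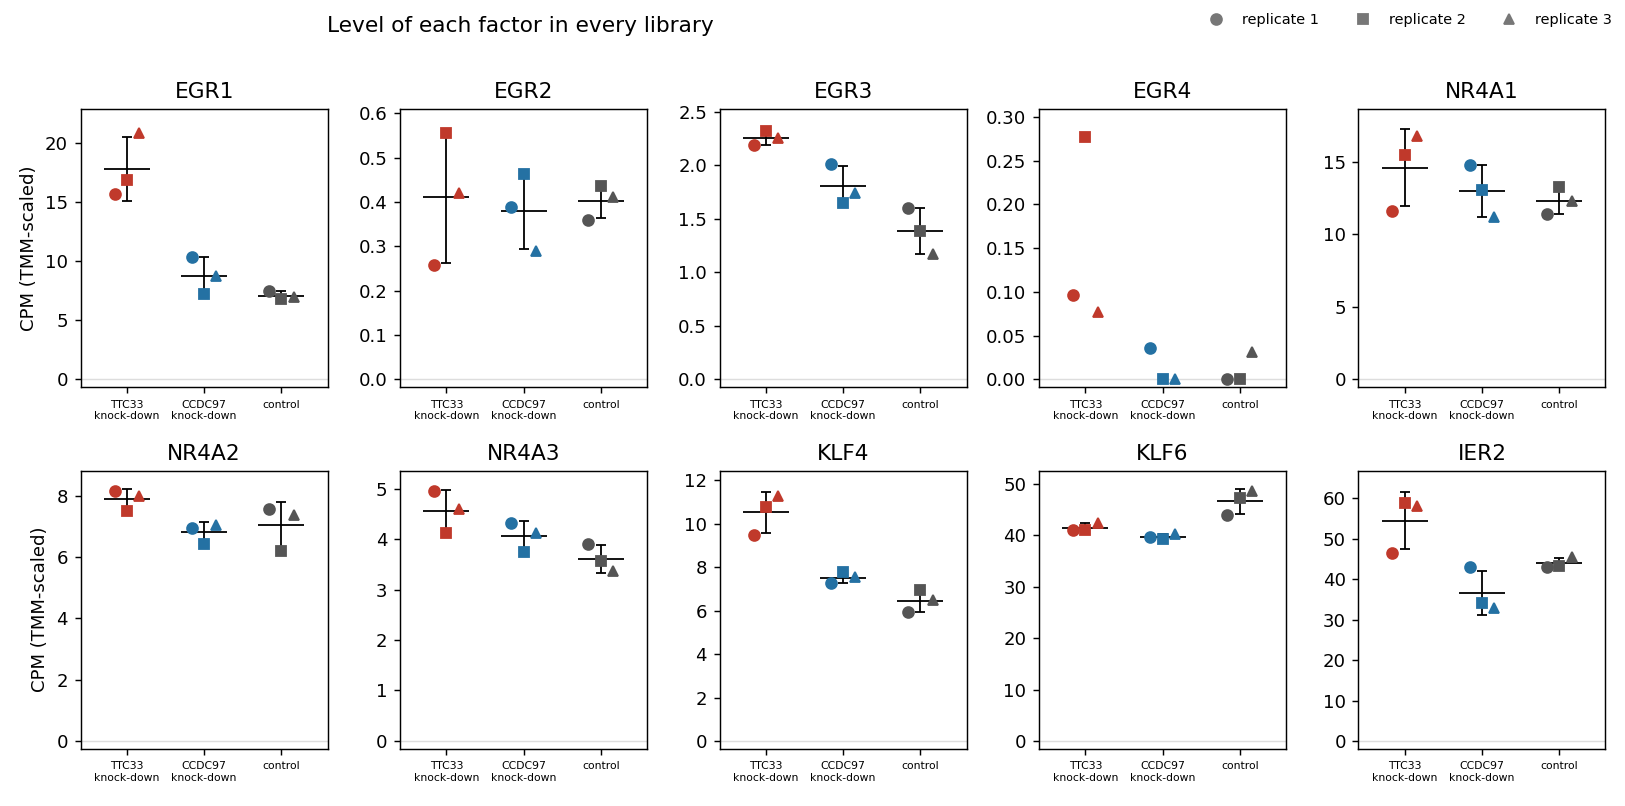
Level of each factor in CPM in every library. Each panel is a gene with its own vertical axis, symbols are replicates 1 to 3, and horizontal bars with whiskers give mean ± SD of 3 libraries, left out for EGR4, which has 0 to 8 counts. EGR1 (15.7 to 20.9 CPM), EGR3 and KLF4 lie above every control library in all TTC33 knock-down libraries.

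The comparison of TTC33 knock-down with control cells asked which of the factors differ between these groups. Of the 9 factors with enough counts to be tested, 3 rose (EGR1, EGR3 and KLF4) and none fell at an adjusted p under 0.05, where 6.50% of all genes tested rose and 5.44% fell. All TTC33 knock-down libraries lay above all control libraries for 5 of the 9 (19.0% of all genes) and below them for 1 (17.8%). The median log2 fold change of the 9 was 0.31, against 0.005 for all genes tested. Leaving out 1 library at a time gave 2 to 5 factors past the threshold, where 2.96% to 34.9% of all genes tested passed. The 5 factors came from the fit without TTC33 knock-down replicate 1, which had the 34.9%. In bulk RNA, more transcript per cell and more cells with the transcript cannot be told apart.

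EGR1, a zinc finger factor widely used as a readout of ERK signalling, had the largest fold change of the 9. It had 15.7, 16.9 and 20.9 CPM in TTC33 knock-down replicates 1, 2 and 3 and 7.49, 6.80 and 6.98 CPM in control replicates 1, 2 and 3. The groups did not overlap, and the lowest knock-down library, replicate 1, stood well above the highest control library. The rise was 2.51-fold (log2 fold change 1.33 ± 0.14, adjusted p = 0.000342), and it passed in all 9 fits that left out 1 library, at 1.19 to 1.41. Without the first library of both knock-downs it was 1.41, and after the GC and length correction it was 1.21.

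EGR3, known for its roles in T cells and in muscle spindles, was low in all groups. It had 2.18, 2.32 and 2.26 CPM in TTC33 knock-down replicates 1, 2 and 3 and 1.60, 1.39 and 1.17 CPM in control replicates 1, 2 and 3. All knock-down libraries were above all control libraries, with little spread among the knock-down libraries. The rise was 1.62-fold (log2 fold change 0.69 ± 0.16, adjusted p = 0.021). It was not past the threshold when TTC33 knock-down replicate 2 or 3 or control replicate 2 or 3 was left out (adjusted p = 0.0832, 0.0751, 0.0864 and 0.086, with log2 fold changes of 0.59 to 0.69). It was 0.71 without the first library of both knock-downs (adjusted p = 0.00339) and 0.61 after the GC and length correction (adjusted p = 0.0106). EGR3 shares 164 bases of exon with AC055854.1 on the other strand, and the strand setting of the counting is not given in the sources used here.

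EGR2, best known for its part in myelination, did not pass. It had 8, 16 and 11 counts in TTC33 knock-down libraries, 11, 14 and 6 in CCDC97 knock-down libraries and 13, 16 and 13 in control libraries. The groups overlapped, and the log2 fold change of TTC33 knock-down over control was 0.02, with a 95% interval of -0.69 to 0.73 that leaves room for a change of the size seen for EGR3. EGR4, the remaining member of the family, had too few counts to be tested: 3, 8 and 2 in TTC33 knock-down libraries, 1, 0 and 0 in CCDC97 knock-down libraries and 0, 0 and 1 in control libraries. All TTC33 knock-down libraries were above all others in CPM as well. Summed and scaled for library size, TTC33 knock-down held 15.8 times the EGR4 counts of control, with a 95% exact interval of 2.37 to 670.3 that covers counting error only. For CCDC97 knock-down, with 1 count against 1 count, the ratio was 1.32 (0.0168 to 103.5).

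The NR4A receptors, which many cells switch on after cAMP or calcium signals, did not pass the threshold. NR4A1 had 11.6, 15.4 and 16.7 CPM in TTC33 knock-down replicates 1, 2 and 3 and 11.4, 13.3 and 12.3 CPM in control replicates 1, 2 and 3. Replicate 1 lay within the control range while replicates 2 and 3 lay above it, and the log2 fold change was 0.24 ± 0.14 (adjusted p = 0.271). Without TTC33 knock-down replicate 1 it was 0.38 (adjusted p = 0.0231), where 34.9% of all genes tested passed. After the GC and length correction of all libraries it was 0.03 (adjusted p = 0.817). NR4A1 shares 754 bases of exon with AC025259.3 on the other strand.

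NR4A2 averaged 7.89 ± 0.33 CPM in TTC33 knock-down cells and 7.05 ± 0.74 CPM in control cells, where the libraries overlapped (log2 fold change 0.16 ± 0.11, adjusted p = 0.313). NR4A3 had 4.95, 4.13 and 4.59 CPM in TTC33 knock-down libraries and 3.90, 3.57 and 3.36 CPM in control libraries. All 3 knock-down libraries were above all 3 control libraries, but the log2 fold change of 0.34 ± 0.12 missed the threshold (adjusted p = 0.0923). It passed after the GC and length correction, at 0.32 (adjusted p = 0.0465), where 27.1% of all genes tested passed. It was 0.27 without the first library of both knock-downs (adjusted p = 0.0985).

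KLF4, one of the factors used to reprogram cells to pluripotency, rose with EGR1. It had 9.48, 10.8 and 11.3 CPM in TTC33 knock-down replicates 1, 2 and 3 and 5.91, 6.94 and 6.47 CPM in control replicates 1, 2 and 3. The groups did not overlap, and replicate 1 was again the lowest knock-down library. The rise was 1.63-fold (log2 fold change 0.71 ± 0.10, adjusted p = 0.00224), and it passed in all 9 fits that left out 1 library, at 0.64 to 0.77. Without the first library of both knock-downs it was 0.77, and after the GC and length correction 0.60 (adjusted p = 0.000245).

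KLF6, a factor expressed in most tissues, lay slightly lower in both knock-downs. It had 41.0, 41.0 and 42.5 CPM in TTC33 knock-down libraries, 39.6, 39.3 and 40.4 CPM in CCDC97 knock-down libraries and 43.9, 47.3 and 48.7 CPM in control libraries. Every knock-down library was below every control library, yet neither difference passed (TTC33: log2 fold change -0.17 ± 0.070, adjusted p = 0.129, and CCDC97: -0.23 ± 0.070, adjusted p = 0.0896). Both passed after the GC and length correction, at -0.16 (adjusted p = 0.0471) and -0.24 (adjusted p = 0.0091), where 27.1% and 19.2% of all genes passed. They also passed without the first library of both knock-downs (-0.16 and -0.23), where 48.7% and 35.6% of all genes did. The CCDC97 comparison also passed without TTC33 knock-down replicate 1 alone (adjusted p = 0.0443), where 10.6% of all genes did.

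IER2, a nuclear protein of the early growth response, lay on opposite sides of the controls in the 2 knock-downs. It had 46.4, 58.8 and 58.1 CPM in TTC33 knock-down replicates 1, 2 and 3, 42.9, 34.0 and 32.8 CPM in CCDC97 knock-down replicates 1, 2 and 3 and 43.1, 43.2 and 45.3 CPM in control replicates 1, 2 and 3. Replicate 1 of each knock-down lay closest to the control values, and all TTC33 knock-down libraries were above, all CCDC97 knock-down libraries below, the controls. Neither comparison with control passed (TTC33: log2 fold change 0.31 ± 0.12, adjusted p = 0.103, and CCDC97: -0.26 ± 0.12, adjusted p = 0.244). Without the first library of both knock-downs both passed, at 0.42 and -0.39, where 48.7% and 35.6% of all genes did. After the GC and length correction neither passed, at 0.11 and -0.13. The TTC33 comparison also passed without TTC33 knock-down replicate 1 alone (adjusted p = 0.0069) or CCDC97 knock-down replicate 1 alone (adjusted p = 0.0488), where 34.9% and 16.0% of all genes did. The CCDC97 comparison passed without CCDC97 knock-down replicate 1 alone (adjusted p = 0.0458), where 9.88% of all genes did. IER2 shares 946 bases of exon with AC011446.2 on the other strand.

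**Figure D3:**
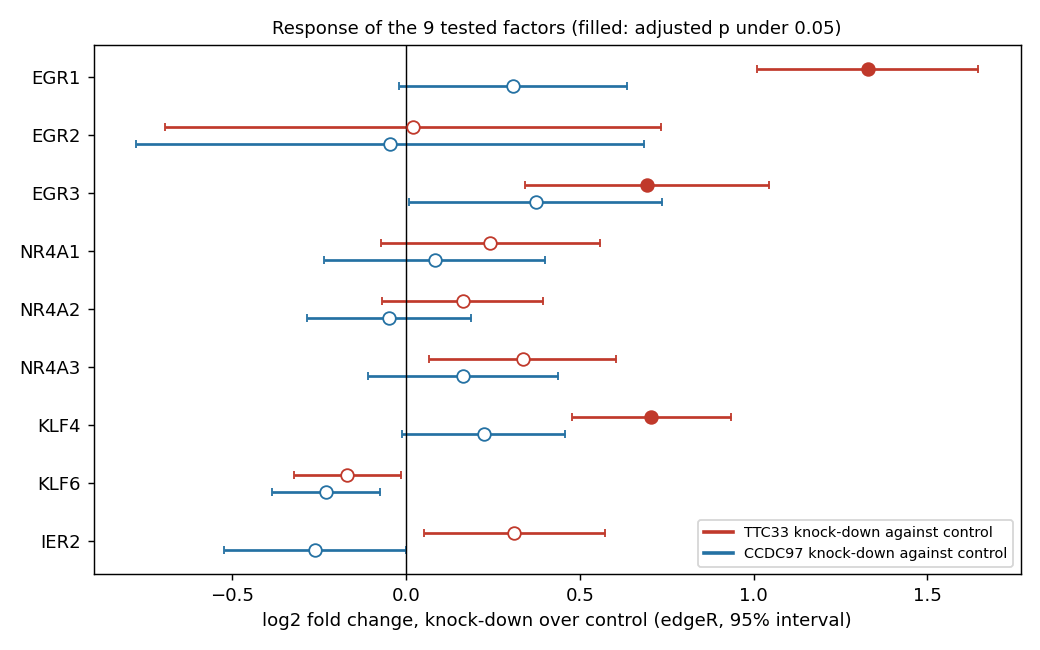
Log2 fold change of the 9 tested factors in TTC33 knock-down (red) and CCDC97 knock-down (blue), each over control, with 95% intervals derived from the F statistic of the edgeR test. Filled points passed an adjusted p of 0.05: EGR1 (1.33), EGR3 (0.69) and KLF4 (0.71), all in TTC33 knock-down.

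In CCDC97 knock-down cells none of the 9 tested factors passed the threshold against control with edgeR, where 4.56% of all genes tested did. EGR3 (unadjusted p = 0.046) and KLF6 (0.00722) had an unadjusted p under 0.05, and the DESeq2 Wald test called 1 factor, KLF6, where it called 8.04% of all genes tested. The median log2 fold change of the 9 was 0.08, against 0.001 for all genes tested. All CCDC97 knock-down libraries lay above all control libraries for 2 factors (14.9% of all genes tested), EGR3 and KLF4, and below them for 2 (15.0%), KLF6 and IER2. EGR1 had 10.4, 7.2 and 8.76 CPM in CCDC97 knock-down replicates 1, 2 and 3, so that replicate 2 lay within the control range. Its log2 fold change was 0.31 ± 0.15 (adjusted p = 0.273), and 0.15 without the first library of both knock-downs. KLF4 had 7.25, 7.76 and 7.55 CPM, just above the control libraries, with 0.22 ± 0.11 (adjusted p = 0.266). EGR3 had 2.02, 1.65 and 1.74 CPM and 0.37 ± 0.17 (adjusted p = 0.234). The NR4A receptors overlapped the control libraries: NR4A1 had 14.7, 13.1 and 11.2 CPM (0.08 ± 0.14), NR4A2 6.97, 6.44 and 7.07 CPM (-0.05 ± 0.11) and NR4A3 4.32, 3.73 and 4.11 CPM (0.16 ± 0.12). EGR2 also overlapped them (-0.05, 95% interval -0.78 to 0.69). After the GC and length correction EGR1 (0.37, adjusted p = 0.0264) and KLF4 (0.29, adjusted p = 0.0447) passed, and EGR3 did not (0.41, adjusted p = 0.1003). In that fit 19.2% of all genes tested passed.

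The direct comparison of the 2 knock-downs, in which both sides express a microRNA, tested whether the responses differed. Of the 9 factors, 3 were higher in TTC33 than in CCDC97 knock-down cells, where 11.3% of all genes tested were, and all TTC33 knock-down libraries were above all CCDC97 knock-down libraries for 6 of them (15.9% of all genes). EGR1 was 2.03-fold higher (log2 1.02 ± 0.15, adjusted p = 0.00128), at 17.8 ± 2.71 CPM in TTC33 and 8.79 ± 1.60 CPM in CCDC97 knock-down cells. IER2 was 1.49-fold higher (0.57 ± 0.12, adjusted p = 0.00857), at 54.4 ± 7.0 CPM in TTC33 and 36.6 ± 5.54 CPM in CCDC97 knock-down cells. KLF4 was 1.40-fold higher (0.48 ± 0.11, adjusted p = 0.0106), at 10.5 ± 0.93 CPM in TTC33 and 7.52 ± 0.26 CPM in CCDC97 knock-down cells, and missed the threshold without TTC33 knock-down replicate 3 (0.42, adjusted p = 0.051). EGR3 did not differ beyond the threshold (0.32, 95% interval -0.03 to 0.67, adjusted p = 0.166), and the 3 NR4A genes gave 0.16 to 0.21. After the GC and length correction the EGR1 difference was 0.84 (adjusted p = 2.55e-05) and that of KLF4 0.31 (adjusted p = 0.0212), and without the first library of both knock-downs they were 1.26 and 0.52. The IER2 difference was 0.24 after the GC and length correction (adjusted p = 0.00175) and 0.81 without the first library of both knock-downs.

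The factors are spread over a range of GC content, and the correction moved them unequally. IER2 (61.7% GC in its longest transcript), NR4A1 (59.8%), EGR1 (55.3%) and KLF4 (55.0%) lie above the middle of the genes tested, while NR4A3 (46.9%) and KLF6 (45.9%) lie below it. For EGR1, the log2 differences of TTC33 knock-down replicates 1, 2 and 3 from the control mean were 1.14, 1.25 and 1.55 as counted and 1.15, 1.08 and 1.36 after the correction. For KLF4 they were 0.56, 0.74 and 0.81 as counted and 0.57, 0.59 and 0.63 after it, which brought the 3 libraries together. For IER2 the same libraries had 0.08, 0.42 and 0.41 as counted and 0.14, 0.12 and 0.07 after it, and CCDC97 knock-down replicates 1, 2 and 3 had -0.03, -0.37 and -0.42 as counted and -0.13, -0.11 and -0.15 after it. The IER2 libraries of each knock-down lay closer to each other after the correction and closer to the controls in replicates 2 and 3. For NR4A1, TTC33 knock-down replicates 1, 2 and 3 had -0.083, 0.33 and 0.45 as counted and -0.08, 0.05 and 0.13 after it, and the direct comparison of the knock-downs was 0.16 as counted and -0.17 after it, neither past the threshold.

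**Figure D4:**
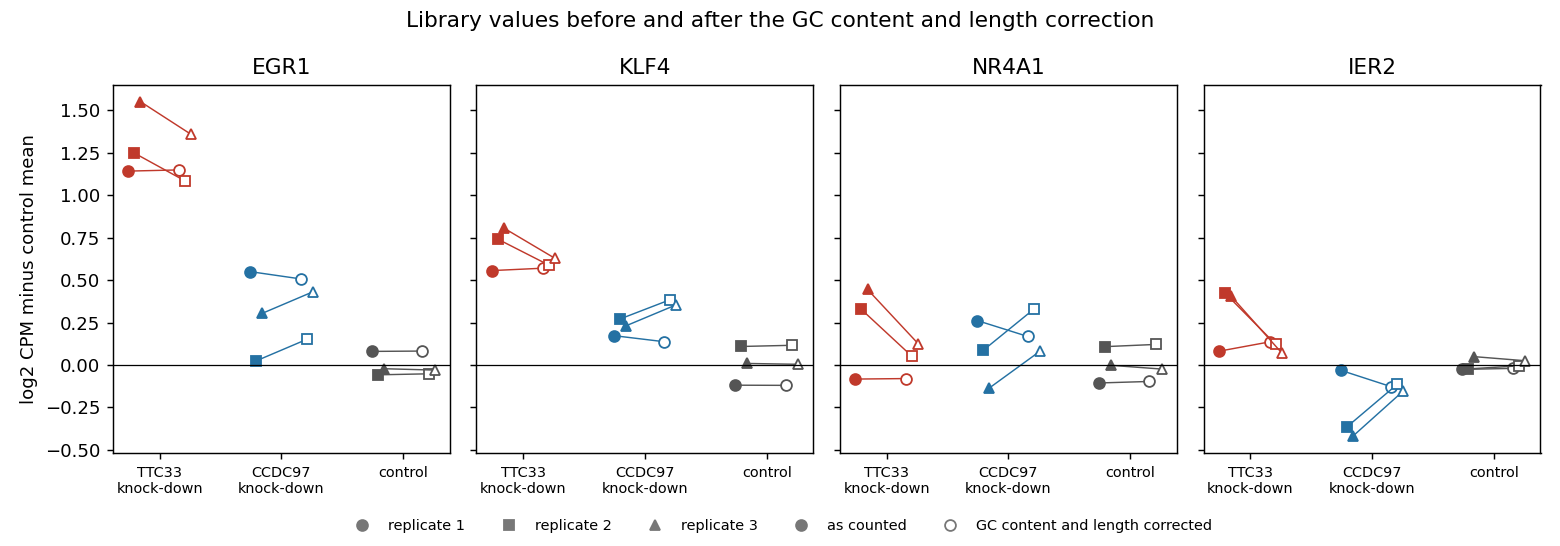
Log2 CPM minus the control mean of EGR1, KLF4, NR4A1 and IER2 in each library, as counted (filled) and after the GC content and length correction (open), joined by lines. Symbols are replicates 1 to 3. EGR1 and KLF4 stay above the controls in TTC33 knock-down, while IER2 in replicates 2 and 3 moves from 0.42 and 0.41 to 0.12 and 0.07.

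The corepressors of EGR proteins and the partners of the NR4A receptors were looked at next. NAB1, which binds EGR1, EGR2 and EGR3 and represses their targets, had 40.4, 30.2 and 27.5 CPM in TTC33 knock-down libraries and 62.9, 61.5 and 61.8 CPM in control libraries. All knock-down libraries were below all controls, replicate 1 the least, and the fall was 1.90-fold (log2 fold change -0.92 ± 0.14, adjusted p = 0.00283, past in all 9 fits that left out 1 library). In CCDC97 knock-down cells NAB1 had 50.4, 61.0 and 68.2 CPM, on both sides of the controls (-0.05, adjusted p = 0.876). NAB2, the second corepressor and itself a target of EGR1, averaged 8.35 ± 0.53 CPM in TTC33 knock-down, 7.50 ± 0.73 CPM in CCDC97 knock-down and 7.75 ± 0.61 CPM in control cells and passed in neither comparison. Of the RXR genes, RXRA fell in CCDC97 knock-down cells (24.0 ± 2.94 CPM, against 32.4 ± 1.08 CPM in control cells, log2 fold change -0.43 ± 0.099, adjusted p = 0.0331, lost in 6 of the 9 fits leaving out 1 library) but not past the threshold in TTC33 knock-down cells (34.3 ± 2.36 CPM, 0.08). RXRB and RXRG passed in neither. So 1 of these 5 genes fell in each knock-down, where 5.44% of all genes fell in TTC33 and 2.49% in CCDC97 knock-down, and none rose.

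Among 12 genes for SRF, its ternary complex and MRTF partners and the CREB family, 4 rose and 1 fell in TTC33 knock-down cells, where 6.50% of all genes tested rose and 5.44% fell. ELK3, a ternary complex factor that can repress its targets until ERK phosphorylates it, had 14.9, 12.1 and 13.2 CPM in TTC33 knock-down, 35.6, 35.5 and 36.8 CPM in CCDC97 knock-down and 34.8, 31.8 and 32.3 CPM in control libraries. The TTC33 knock-down libraries stood far below all others, a 2.46-fold fall against control (log2 fold change -1.30 ± 0.092, adjusted p = 1.69e-05, past in all 9 fits that left out 1 library, and -1.22 after the GC and length correction). ELK1, an activating relative, rose by 0.38 ± 0.095 on the log2 scale (67.5 ± 7.59 CPM in TTC33 knock-down and 51.9 ± 0.90 CPM in control cells, adjusted p = 0.0282), and MRTFA, an actin-sensing SRF coactivator, by 0.49 ± 0.12 (59.1 ± 9.24 CPM in TTC33 knock-down and 42.0 ± 2.05 CPM in control cells, adjusted p = 0.0286). The CREB coactivators CRTC1 and CRTC2 were the remaining 2 that rose. ELK1 and MRTFA each missed the threshold in 5 of the 9 fits leaving out 1 library, and after the GC and length correction they were at 0.24 (adjusted p = 0.00292) and 0.27 (adjusted p = 0.00164). None of the 12 passed in CCDC97 knock-down cells with edgeR, where 2 had an unadjusted p under 0.05 and DESeq2 called 1, a share near its 8.04% of all genes tested.

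The wider immediate early response was described with 4 further lists. Of 31 tested immediate early genes outside the families above, 12 rose and 1 fell in TTC33 knock-down cells (6.50% and 5.44% of all genes tested), with a median log2 fold change of 0.35. In CCDC97 knock-down cells 5 rose, where 2.07% of all genes rose, with a median log2 fold change of 0.08. GADD45B, a stress-response gene, had 21.3 ± 2.89 CPM in TTC33 knock-down, 12.6 ± 1.10 CPM in CCDC97 knock-down and 8.81 ± 0.61 CPM in control cells (log2 fold change 1.27, adjusted p = 0.000111, for TTC33 and 0.52, adjusted p = 0.0348, for CCDC97). PLK2, a polo-like kinase, had 17.7 ± 0.79 CPM in TTC33 knock-down, 18.3 ± 0.64 CPM in CCDC97 knock-down and 11.3 ± 0.37 CPM in control cells (0.65, adjusted p = 0.000878, and 0.70, adjusted p = 0.00107). The 2 comparisons share the control libraries. CCN2, a matricellular protein, had 4.37 ± 0.96 CPM in TTC33 knock-down, 4.37 ± 0.66 CPM in CCDC97 knock-down and 2.13 ± 0.24 CPM in control cells (1.03, adjusted p = 0.00609, and 1.03, adjusted p = 0.0111), and the kinase SGK1 had log2 fold changes of 0.71 in TTC33 and 0.61 in CCDC97 knock-down cells (adjusted p = 0.00655 and 0.0242). TRIB1 was the remaining gene called in CCDC97 knock-down cells. There, GADD45B missed the threshold in 7, SGK1 in 5 and CCN2 in 2 of the 9 fits leaving out 1 library. MYC, the growth-promoting factor, fell in TTC33 knock-down cells (75.6, 93.9 and 98.3 CPM, against 144.0, 139.2 and 146.2 CPM in control cells, log2 fold change -0.68 ± 0.12, adjusted p = 0.00606), with the lowest value in replicate 1, and was past the threshold in all 9 fits that left out 1 library.

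AP-1 genes, the FOS and JUN partners that are induced beside EGR1, rose in 4 of 7 cases in TTC33 knock-down cells (6.50% of all genes tested) and in none in CCDC97 knock-down cells with edgeR. In CCDC97 knock-down cells 3 had an unadjusted p under 0.05 and DESeq2 called 2, where it called 8.04% of all genes tested. FOSB rose by 1.26 ± 0.16 on the log2 scale (5.14 ± 0.42 CPM in TTC33 knock-down and 2.14 ± 0.13 CPM in control cells, adjusted p = 0.00102), JUNB by 0.97 ± 0.20 (24.7 ± 6.74 CPM in TTC33 knock-down and 12.6 ± 0.69 CPM in control cells, adjusted p = 0.0142) and FOSL2 by 0.52 ± 0.088 (adjusted p = 0.00501), and JUND by 1.00 ± 0.21 (adjusted p = 0.0142). JUNB and JUND both missed the threshold in 5 of the 9 fits leaving out 1 library, while FOSB and FOSL2 passed in all 9. Of 12 tested genes of ERK feedback, 3 rose in TTC33 knock-down cells, DUSP6, DUSP1 and ETV5 (6.50% of all genes tested), and 1 in CCDC97 knock-down cells, DUSP6 (2.07%). In TTC33 knock-down cells ETV5 missed the threshold in 7, DUSP1 in 5 and DUSP6 in 3 of the 9 fits leaving out 1 library. The ERK phosphatase DUSP6 had 15.8 ± 0.68 CPM in TTC33 knock-down, 18.3 ± 2.18 CPM in CCDC97 knock-down and 11.2 ± 0.53 CPM in control cells (0.50, adjusted p = 0.0131, and 0.71, adjusted p = 0.00395). Of the 12 other KLF genes tested, 1 rose in TTC33 knock-down cells, KLF7 (0.30 ± 0.085, adjusted p = 0.0415, lost in 6 of the 9 fits leaving out 1 library), a share near the 6.50% of all genes tested. None passed in CCDC97 knock-down cells with edgeR, where 2 had an unadjusted p under 0.05 and DESeq2 called 1, a share near its 8.04% of all genes tested.

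The counts of these lists depended on single libraries, and they moved with the share of all genes tested that passed in either direction, which was 11.9% in TTC33 and 4.56% in CCDC97 knock-down cells with all libraries. In TTC33 knock-down cells they were highest without TTC33 knock-down replicate 1, with 20 of the 31 immediate early genes, 6 of the 7 AP-1 genes, 7 of the 12 ERK feedback genes, 6 of the 12 other KLF genes and 7 of the 12 SRF and CREB genes past the threshold, where 34.9% of all genes passed. Without TTC33 knock-down replicate 2 or 3 or any one control library, 6 or 7 of the 31 immediate early genes, 2 AP-1 genes, at most 1 ERK feedback gene, no other KLF gene and 1 SRF or CREB gene passed, where 2.96% to 3.73% of all genes did. Without CCDC97 knock-down replicate 2 or 3, 3 SRF and CREB genes and 2 ERK feedback genes passed (10.0% and 8.97% of all genes). In CCDC97 knock-down cells the immediate early genes past the threshold numbered 1 or 2 without any one control library or CCDC97 knock-down replicate 3 (1.09% to 1.76% of all genes), and 3 without CCDC97 or TTC33 knock-down replicate 2 (1.37% and 3.12%). AP-1 genes there numbered 3 without TTC33 knock-down replicate 1 (10.6% of all genes) and 1 without CCDC97 knock-down replicate 1 (9.88%). Without the first library of both knock-downs, 24 of the 31 immediate early genes and all 7 AP-1 genes passed in TTC33 knock-down cells, where 48.7% of all genes did, and 9 and 3 in CCDC97 knock-down cells, where 35.6% did. The 9 of 31 immediate early genes there are a smaller share than that of all genes.

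**Figure D5:**
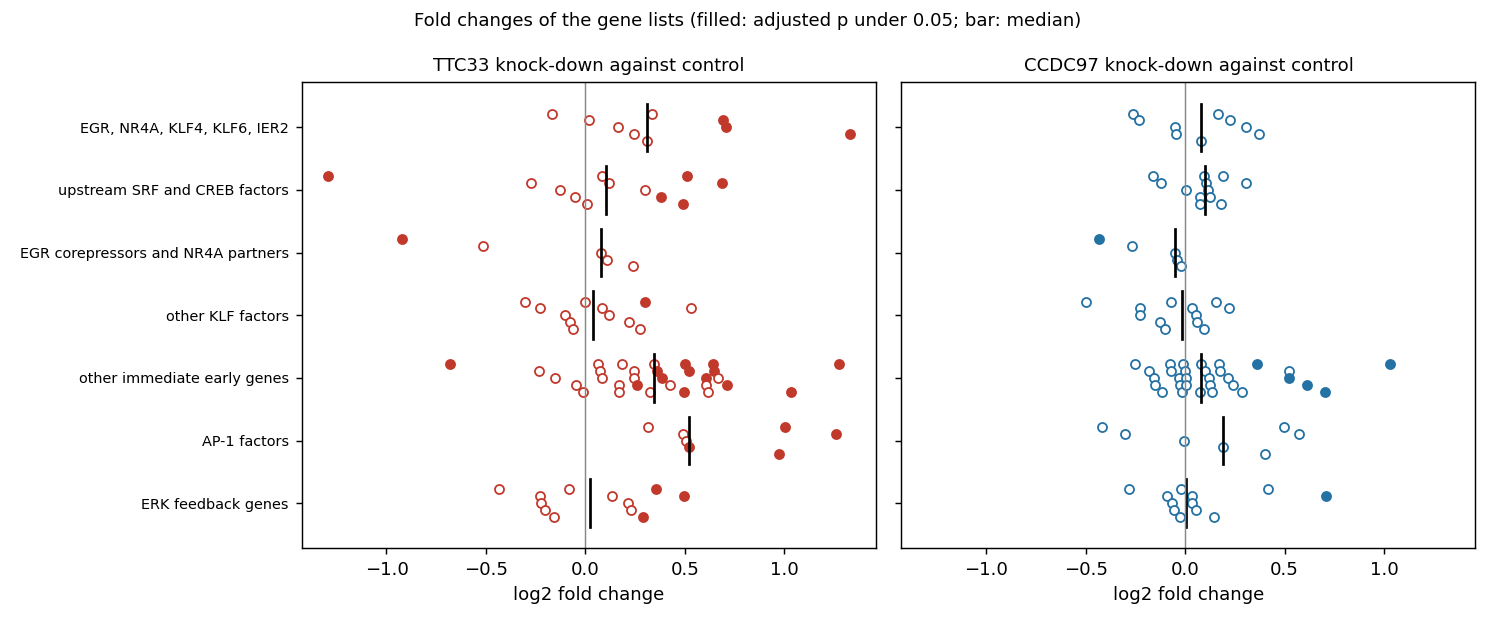
Log2 fold changes of the described factors and of 6 lists of related genes in TTC33 knock-down (left) and CCDC97 knock-down (right), each over control. Points are tested genes, filled where the adjusted p was under 0.05, and vertical bars are list medians. The AP-1 genes have a median of 0.52 in TTC33 and 0.19 in CCDC97 knock-down cells.

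For the 3 factors that rose, the genes most alike across the 9 libraries were found by the root mean square difference of log2 CPM from the control mean, over 11342 genes averaging 5 CPM or more. EGR1 was followed most closely by YPEL3 (0.155), CARMIL2 (0.157) and MFSD13A (0.175). YPEL3 had 10.6 ± 2.46 CPM in TTC33 knock-down, 5.37 ± 1.5 CPM in CCDC97 knock-down and 4.55 ± 0.58 CPM in control cells. Its log2 fold change in TTC33 knock-down over control was 1.21 (1.33 for EGR1). Genes here were picked for likeness in these same libraries, so the nearness of their values follows from the choice and is no further result. For EGR3 the nearest were MICB (0.137), CCN1 (0.141) and CAMKV (0.147), of which CCN1, an immediate early gene itself, had 20.8 ± 1.03 CPM in TTC33 knock-down, 17.9 ± 1.53 CPM in CCDC97 knock-down and 14.7 ± 0.64 CPM in control cells. For KLF4 they were NEU1 (0.077), CKMT1B (0.081) and BRMS1 (0.091). NEU1, the lysosomal sialidase, had 71.4 ± 7.22 CPM in TTC33 knock-down, 55.1 ± 1.59 CPM in CCDC97 knock-down and 44.5 ± 1.31 CPM in control cells. CKMT1B has a near-identical copy, so its counts are uncertain.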

How the data were processed

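Total RNA of 9 libraries was measured by RNA sequencing. The authors deposited raw, unscaled counts for each gene. According to the submitters' processing notes, they had trimmed reads with Trimmomatic 0.39, aligned them to GRCh38 with HISAT2 and counted them with HTSeq 2.0.1. Annotation, strandedness of the kit and strand setting: not given in the sources used here. For every library there is a table marked R12, used throughout, and a smaller one marked U (6.55% to 11.9% of the sum), whose meaning the sources do not state. Entries that name no gene held 33.4% to 57.9% of the R12 counts and were left out. No library was a copy of another: chi-square values between replicates were 3.31 to 34.6 per degree of freedom.

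Counts were tested with the edgeR 4.0.16 quasi-likelihood test in R 4.3.3: filterByExpr by group (18299 genes kept), TMM factors, a term per group over all 9 libraries, 6 residual degrees of freedom, common biological coefficient of variation 0.109. Tests were two-sided, with Benjamini-Hochberg adjustment across all genes tested and a threshold of 0.05. The fit was tested on simulated counts with less scatter between libraries than these data and without GC trends, so that check does not cover these features. CPM are counts per 1e+06 scaled library counts, and log2 CPM used a prior count of 2. The ratio of EGR4 counts has an exact interval. GC content and length were those of the longest transcript of each gene in GENCODE release 29 (values for 98.6% of genes tested). They were corrected with smooth trends per library (mgcv 1.9.3). Promoter windows and their build are from RefSeq.

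Alternatives were DESeq2 size factors, upper-quartile factors, no filter, a filter on a mean of 5 CPM, DESeq2 1.42.0, a fit restricted to the pair of groups in question, a replicate block, the GC and length correction with and without the block, the sum of both tables, and leaving out libraries.

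The factors and the gene lists were chosen with earlier results of these data known. Named genes outside the 10 are the targeted genes, up to 3 genes of each list with the smallest adjusted p in a comparison with control, the corepressors and partners, and the 3 genes most like each factor that rose. CRTC1, CRTC2, JUN, JUND and TRIB1, GADD45B in the CCDC97 knock-down, and the cell type markers LUM, DCN, COL1A1, COL1A2, VIM, PAX2 and NEFM, were named after their values were seen.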

Additional observations from a re-analysis of the deposited data

Results flagged for a closer look

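The response to the 2 knock-downs differed for 3 factors by a test of the difference itself (edgeR, TTC33 over CCDC97 knock-down, 3 libraries each). EGR1 was higher by 1.02 on the log2 scale (adjusted p = 0.00128), IER2 by 0.57 (adjusted p = 0.00857) and KLF4 by 0.48 (adjusted p = 0.0106), and in each case all 3 TTC33 knock-down libraries were above all 3 CCDC97 knock-down libraries. After the GC and length correction the differences were smaller, at 0.84, 0.24 and 0.31, and still past the threshold. KLF4 missed it in 1 of the 9 fits leaving out 1 library.

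The smaller U count tables, which entered the comparisons only as the alternative with summed counts, had all TTC33 knock-down libraries above all control libraries for 3 of the 10 factors, against 10.7% of all genes tested. In them the lowest TTC33 knock-down library had 14.4 CPM of EGR1, against 4.72 to 6.85 CPM in the control libraries, and the CCDC97 knock-down libraries had 9.97 to 10.8 CPM. The lowest TTC33 knock-down library had 7.30 CPM of NR4A1, against 5.84 to 6.30 CPM in control libraries, and 6.76 CPM of NR4A2, against 3.94 to 6.05 CPM. These rest on 40 to 60 counts of EGR1 per TTC33 knock-down library, and on 18 to 34 counts of NR4A1 and 18 to 24 of NR4A2, with no test. In the other 7 factors the groups overlapped: KLF4 had 7.94, 6.76 and 8.12 CPM in TTC33 knock-down and 10.2, 6.64 and 5.04 CPM in control libraries, and EGR3 had 2.17, 1.69 and 3.25 CPM in TTC33 knock-down and 0.787, 0.403 and 2.69 CPM in control libraries. The U tables belong to the same samples and are no independent replicate.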

How the results depend on the processing

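EGR1 and KLF4 stayed past the threshold in TTC33 knock-down against control under every alternative run, and EGR3 under all that tested it except the replicate block (0.7, adjusted p = 0.0552) and 4 of the 9 fits leaving out 1 library; a filter on a mean of 5 CPM left EGR3 untested. Without a filter EGR4 passed too (adjusted p = 0.04). Whether the replicate numbers pair the libraries is not settled. Between groups, correlations of same-numbered libraries ran from -0.504 to 0.094 and those of different-numbered libraries from -0.274 to 0.37. Between TTC33 knock-down and control they were 0.073, 0.04 and 0.068 for the same number and -0.067 to 0.02 for different numbers. The block gave 756 genes past the threshold for TTC33 knock-down, 240 for CCDC97 knock-down and 1857 for their direct comparison, against 2186, 835 and 3943. These were 4.13%, 1.31% and 10.1% of all genes tested, and the block left 2, 0 and 3 factors. With block and GC and length correction together 4543 and 3159 genes passed against control (24.8% and 17.3% of all genes tested), with 3 factors in CCDC97 knock-down. With the correction alone 4962 and 3505 genes passed (27.1% and 19.2%), with 5 factors in TTC33 and 3 in CCDC97 knock-down. Without a filter 3821 and 1369 genes passed against control. For CCDC97 knock-down DESeq2 gave 1471 genes (8.04%) and 1 factor, and the filter on 5 CPM 1 factor (7.08% of all genes). A fit of the 2 groups compared gave 1339 genes for CCDC97 knock-down and 1479 for the direct comparison. Without the first library of both knock-downs 9129, 6675 and 10362 genes passed, or 48.7%, 35.6% and 55.2% of those tested. In these fits 6, 2 and 4 factors passed. Leaving out 1 library gave 552 to 6512, 203 to 1981 and 1528 to 7767 genes, and 2 to 5, 0 to 1 and 2 to 3 factors. The shares of all genes ran from 2.96% to 34.9%, from 1.09% to 10.6% and from 8.17% to 41.6%. The cause of these shifts was not tested.

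Fold changes that turned sign were small and not past the threshold. In TTC33 knock-down against control, EGR2 was -0.0016 without a filter, -0.037 with block and correction, -0.031 with the correction and -0.0301 in the summed tables; NAB2 was -0.087 with block and correction and -0.088 with the correction, and RXRA -0.13 in both. In CCDC97 knock-down, NAB2 was 0.10 and RXRB 0.076 in both corrected fits, and without the first libraries NR4A1 was -0.012, NAB1 0.055 and RXRG 0.073. In the direct comparison EGR2 was -0.018 with block and correction and -0.021 with the correction, and NR4A1 -0.17 in both. Leaving out 1 library, EGR2 ran from -0.27 to 0.28 in TTC33 knock-down, -0.22 to 0.081 in CCDC97 knock-down and -0.22 to 0.33 between them. In CCDC97 knock-down NR4A1 ran from -0.019 to 0.17, NR4A2 from -0.14 to 0.0051, NAB1 from -0.16 to 0.057, NAB2 from -0.11 to 0.020, RXRB from -0.073 to 0.034 and RXRG from -0.70 to 0.070.

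Depth limits EGR2, at 6 to 16 counts per library, where a difference as large as that of EGR3 was within the interval, and EGR4, at 0 to 8.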

Other observations

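Against CCDC97 knock-down cells, 5 of 7 AP-1 genes were higher in TTC33 knock-down cells (FOSB, FOSL2, JUN, JUNB and JUND), where 11.3% of all genes tested were, and 9 of 31 other immediate early genes were higher. FOSB was 0.69 higher on the log2 scale (edgeR, adjusted p = 0.0143), JUNB 0.98 (adjusted p = 0.00901) and FOSL2 0.33 (adjusted p = 0.0242). FOSB and FOSL2 each missed the threshold in 4 of the 9 fits leaving out 1 library and JUNB in 1. After the GC and length correction FOSB was at 0.44, JUNB at 0.62 and FOSL2 at 0.15, which did not pass (adjusted p = 0.0821). GADD45B was 0.75 higher (adjusted p = 0.00212), and 0.49 after the correction, while NAB1 was lower by 0.87 on the same scale (log2 -0.87, adjusted p = 0.00274) and MYC by 0.78 (log2 -0.78, adjusted p = 0.00197). Leaving out 1 library gave 2 to 5 AP-1 genes past the threshold, with 2 without CCDC97 knock-down replicate 2 and 3 without TTC33 knock-down replicate 2 or 3 or CCDC97 knock-down replicate 3, where 8.17% to 9.74% of all genes passed. The other immediate early genes past it in either direction numbered 11 with all libraries, where 3943 of all 18299 genes tested passed. Without CCDC97 knock-down replicate 2 they numbered 7, where 8.17% of all genes passed. They numbered 17 without replicate 1 of TTC33 or of CCDC97 knock-down, where 41.6% and 32.9% of all genes passed.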
